A study of Glycine max with 24 samples.

Results

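Leaf gene expression was compared between stage L-III and stage L-IV of the soybean trifoliate leaf, the step that leads into the onset of senescence. The transcripts described here are those with a value above the minimum of the leaf table, that is with at least 1 read, in at least 3 of the 6 libraries of these stages. By this rule 52710 of the 73320 transcript models in the table were taken (71.9%), from 37927 genes, and 41130 of them had reads in all 6 libraries. At the edge of the rule, 3090 transcripts had reads in exactly 3 libraries, with a median of 6 reads summed over the 6, and the 3175 transcripts with reads in exactly 2 libraries had a median of 3 and were left out.

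The study profiled 5 leaf and 3 cotyledon stages of the soybean cultivar Williams 82 by RNA-seq, with 3 libraries per stage and 24 libraries in all. Stage L-III (leaf stage 5) and stage L-IV (leaf stage 7) are labelled as leaves taken 4 and 6 weeks after the V3 vegetative stage, and the study's methods give a different interval between them, so that no rate per day is given. All plants were unmodified and grown in chambers with equal hours of light and dark, and the third trifoliate at the fourth node was taken in the afternoon from a different plant for each library. The whole leaf was extracted, so that fewer cells of a type and less RNA per cell cannot be told apart in any result that follows.

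Leaf senescence is the ordered last phase of a leaf's life, in which chloroplasts are dismantled first and their nitrogen is exported as amino acids to growing organs and seeds. In Arabidopsis the transcripts of proteases, lipid hydrolases, nutrient transporters and of transcription factors of the NAC and WRKY families are known to increase with age, while those of the light-harvesting antenna and of carbon fixation decrease. The chloroplast antenna is built of the light-harvesting chlorophyll-binding proteins, whose chlorophyll must be broken down before the proteins can be digested.

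The L-III libraries held 3263428 to 6887154 uniquely matched reads and the L-IV libraries 4415872 to 5832485. Values below are normalised read counts, that is reads per library scaled by the size factors of the study. A count of 3 reads, taken as the limit of detection and covering counting error only, corresponded to a mean of 2.71 normalised counts at L-III and 2.52 at L-IV. Of the 6 libraries compared, 1 stood apart from its stage. On the axis that runs from the mean of the L-II leaves (0) to the mean of the L-V leaves (1), over all tested transcripts, L-III replicates 1 and 3 lay at 0.333 and 0.328 and L-III replicate 2 lay at 0.502, while the 3 L-IV libraries lay between 0.720 and 0.790. L-III replicate 2 was therefore the L-III library nearest to L-IV, and counts without it are given where they differ by over 1.5 times. Among the antenna and rubisco activase genes taken as mesophyll markers, 0 of 36 genes were without a read, and their summed level was 55845 to 107421 at L-III and 37474 to 53489 at L-IV. Most of this sum is the antenna level described below, so it is no separate measure of mesophyll content. The rubisco small subunit transcript Glyma13g07610.1, not among these markers, overlapped at 965 to 3981 against 1250 to 2396. The sums of the seed storage (5 genes, 24.5 to 64.6 against 26.4 to 34.4) and root nodule (6 genes, 46.8 to 78.9 against 42.3 to 80.6) markers overlapped between the stages, as did the 1 phloem marker gene (64.6 to 71.0 against 70.7 to 118). The 1 flower marker gene did not, at 34.2 to 59.5 against 17.6 to 19.2. The epidermal markers (8 genes, lipid transfer proteins and ketoacyl-CoA synthases) did not overlap either, at 7730 to 17120 against 4609 to 6699, and the part of the epidermis in the results below was not tested.

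Between L-III and L-IV, 906 transcripts of 854 genes rose and 386 transcripts of 351 genes fell, and no gene had transcripts of both kinds. A transcript was called when limma gave an adjusted p below 0.05 over the 50940 transcripts tested and the log2 fold change exceeded 1.5 in size. Rises were 1.78% and falls 0.758% of the transcripts tested, and all of the called transcripts belonged to the 47895 members tested. A further 4815 members had too few reads to be tested. Rises made up 70.1% of the calls. The median log2 fold change was 2.77 among the rises and -2.64 among the falls, against -0.01 over all transcripts tested, and it was 2.58 and -2.28 once the transcripts at the limit of detection in the lower stage (189 rises and 169 falls) were set to their bound. Groups did not overlap in 902 of the 906 rises and in all 386 falls, where 11.6% of all tested transcripts were higher and 9.69% lower in that way. Without a threshold on fold change the counts were 1010 and 404, and at an unadjusted p below 0.05 they were 3929 higher and 2873 lower.

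**Figure D1:**
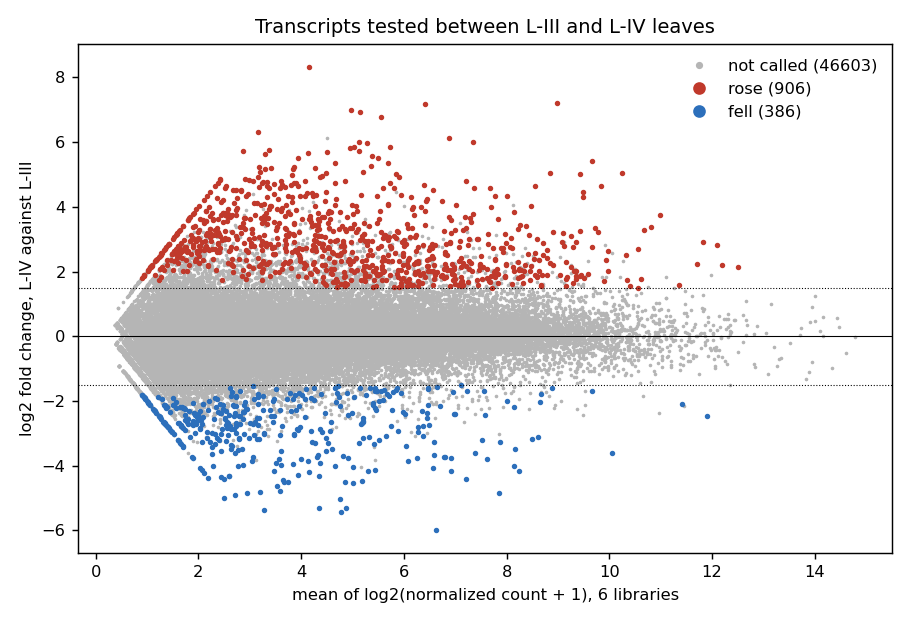
Mean level over the 6 L-III and L-IV libraries, as log2(normalised count + 1), against the log2 fold change of L-IV over L-III for each of the 47895 members tested. The 906 transcripts that rose are red, the 386 that fell are blue, and the dotted lines mark a log2 fold change of 1.5. Most transcripts lie around 0, and more of the called transcripts lie above than below.

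At the median the rises were of low transcripts that became moderately abundant. Some were abundant before, such as Glyma15g19580.1, which rose from a mean of 1576 normalised counts to 7243. Of the 386 fallers, 259 had a higher mean at L-I than at L-III, and the others did not. The median level of the 906 risers went from 3.91, 5.73 and 9.49 normalised counts in the first 3 stages to 74.9 at L-IV, and was 56.6 in the last stage. For the 386 fallers it was 66.9, 36.1 and 24.2 in the first 3 stages, then 2.47 and 1.91. Reads were absent from all 3 L-III libraries for 55 of the risers and from all 3 L-IV libraries for 55 of the fallers. The counts depended on single libraries. Without L-III replicate 2 the counts were 1253 and 572, and without L-III replicates 1 and 3 they were 370 and 116, and 351 and 122. Without L-IV replicates 2 and 3 they were 266 and 106, and 439 and 194, and without L-IV replicate 1 the falls numbered 193. L-III replicate 2 was the L-III library nearest the L-IV level in 593 of the 906 rises (65.5%) and 241 of the 386 falls (62.4%).

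**Figure D2:**
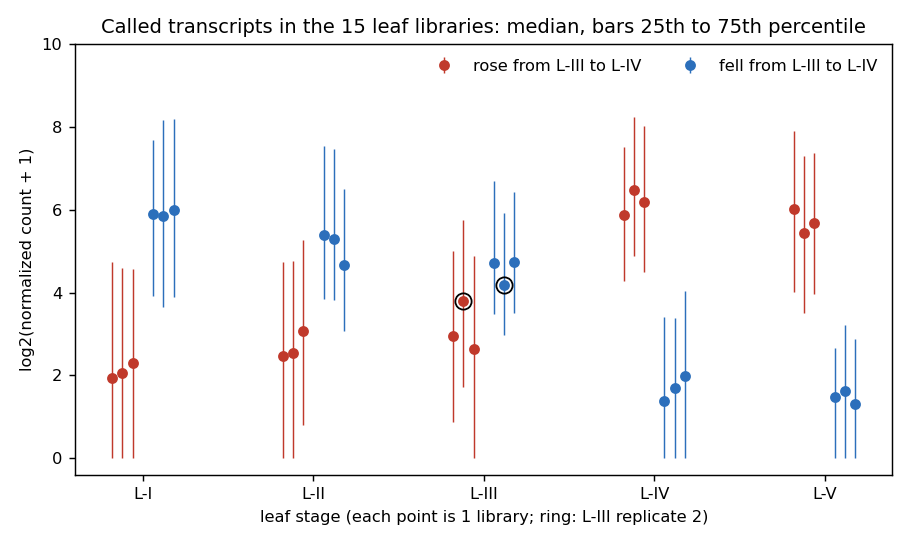
Level of the 906 rising (red) and 386 falling (blue) transcripts in each of the 15 leaf libraries, as the median over transcripts of log2(normalised count + 1) with bars from the 25th to the 75th percentile. The libraries of L-III and L-IV chose the transcripts, and the L-V medians lie near those of L-IV. The ringed points are L-III replicate 2, which lies at 3.79 for the risers beside 2.96 and 2.63 in the other L-III libraries.

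The same transcripts were followed between stages whose means do not enter their fold change. The L-II and L-V libraries did take part in the estimate of error behind the calls, and the L-II to L-V calls use that same estimate, so the counts are not from uninvolved libraries. L-II replicate 3 also differed from its stage: the fallers' median log2(normalised count + 1) was 4.66 there and 5.39 and 5.29 in L-II replicates 1 and 2. No alternative left out an L-II library. From L-II to L-V, 622 of the 906 risers (68.7%) were called higher and 9 were called lower, where 6.05% of all tested transcripts were called higher. Of the 386 fallers, 318 (82.4%) were called lower and 1 was called higher, where 8.33% of all transcripts were called lower. In the cotyledon, the storage organ of the seedling, whose libraries were fitted separately, 136 of the 844 risers tested there (16.1%) also rose from C-II to C-III, the last cotyledon step, against 3.65% of all cotyledon transcripts, and 152 of 360 fallers (42.2%) fell, against 4.93%. The opposite call was made for 21 risers and 8 fallers in the cotyledon. After L-IV, 302 of the 906 risers had a still higher mean at L-V and 19 had a mean below that of L-III. From L-IV to L-V the whole table gave 4 rises (0.00785%) and 21 falls (0.0412%). This comparison shares the L-IV libraries with the one described here.

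Product names were available for 3569 of the members tested, and since the study drew most of these names from genes that changed in these same libraries, calls were more frequent among them, at 6.72% rises and 2.75% falls with a median log2 fold change of 0.06. Product names covered 240 of the 906 risers and 98 of the 386 fallers, and the remaining calls have an identifier only. The groups of transcription factors other than NAC, and those of photosynthesis, proteolysis, hormones and defence, were collected from these names and are therefore no independent evidence of a direction. The NAC family, the nutrient transporters and the soybean homologs of senescence-associated genes come from family or homology lists that did not use the change between libraries.

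Among the lists of transcription factors, that of WRKY, a plant family best known from defence and senescence, held the most rises. The list holds 57 genes found by product name and is not the whole family. Of its 68 tested transcripts 29 rose (42.6%, 26 of 56 genes) and 0 fell, and the median log2 fold change was 1.86. Without overlap 51 of the 68 were higher, where 11.6% of all tested transcripts were. The rises included Glyma18g06360.2, named as WRKY33, a regulator of responses to fungal attack in Arabidopsis. It had 1.69, 25.7 and 3.88 normalised counts in the 3 L-III libraries and 350, 598 and 311 at L-IV. Its log2 fold change was 5.84 ± 0.72 (SE; limma adjusted p = 0.000871). Every L-IV library was above every L-III library, and L-III replicate 2 was the highest of its stage.

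Glyma07g39250.2 (WRKY family) had 2.54, 18.8 and 0 normalised counts at L-III and 178, 316 and 216 at L-IV, a log2 fold change of 5.81 ± 0.88 (SE; limma adjusted p = 0.00248). Glyma08g02160.1 (WRKY family) had 0.845, 2.28 and 1.29 at L-III and 59.3, 140 and 73.7 at L-IV, with a log2 fold change of 5.16 ± 0.68. Here L-III replicate 2 did not stand out, and the call was kept in all 16 alternatives. The most abundant transcript of the WRKY list, Glyma06g15220.1 (WRKY51), did not change beyond its error: 446, 790 and 388 normalised counts at L-III overlapped with 436, 1011 and 973 at L-IV (limma adjusted p = 0.758). The summed level of the listed transcripts was 3326 to 6880 at L-III and 8231 to 15666 at L-IV. WRKY transcripts outside the list do not enter this sum.

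NAC transcription factors include the regulators of leaf ageing that have been studied most closely in Arabidopsis. The NAC list holds 172 genes, kept from the study's NAC annotation after nascent polypeptide entries were removed. The study itself counts a larger set of NAC and NAC-related genes. Of the 172 genes, 96 had tested members, with 112 transcripts. Of these, 14 rose (12.5%), 1 fell (15 and 2 without L-III replicate 2), and the median log2 fold change was 0.59, or 0.48 when undetectable levels were replaced by the detection limit. Glyma15g40950.1 had 4.23, 5.70 and 1.29 normalised counts at L-III and 98.5, 86.5 and 80.6 at L-IV, a log2 fold change of 4.37 ± 0.55 (SE; limma adjusted p = 0.000871). Glyma02g07700.1, named as NAC047, had 16.9, 27.4 and 31.0 at L-III and 397, 566 and 422 at L-IV, with a log2 fold change of 4.17 ± 0.52 (limma adjusted p = 0.000871). In both every L-IV library was above every L-III library, although the L-III values of Glyma15g40950.1 rest on few reads and differed among themselves. The most abundant NAC transcript, Glyma20g33390.1 (NAC050), lay at 1171 to 1531 at L-III and 1243 to 1467 at L-IV.

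AtNAP is a NAC factor that drives leaf senescence in Arabidopsis, and 0 of its 5 soybean orthologs passed the test with all leaf libraries in the fit. Glyma13g35550.1 came nearest, with 14.4, 19.96 and 7.76 normalised counts at L-III and 108, 109 and 91.4 at L-IV. These groups did not overlap, but the limma adjusted p was 0.17 for a log2 fold change of 2.87 ± 0.996 (SE). The error was shared with L-V, where the same transcript had 1794 counts in replicate 1 and 109 and 57.1 in the others. With only the 6 L-III and L-IV libraries in the fit, Glyma13g35550.1 did pass (limma adjusted p = 0.0434, where the alternatives ranged from 0.0434 to 0.453). Glyma02g12220.1 lay at 117 to 182 against 174 to 309, Glyma01g06150.1 at 129 to 153 against 153 to 262, and Glyma07g35630.1 at 3.99 to 10.1 against 2.95 to 14.4. Glyma20g04400.2 had 0 counts in each L-III library and 4.00, 0.739 and 0.983 at L-IV and was too low to be tested.

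A pair of transcripts named as C-repeat-binding factor 4, an AP2-type transcription factor of drought responses in Arabidopsis, rose at L-IV and were near the limit of detection at L-V. Glyma09g27180.2 had 5.92, 9.12 and 6.46 normalised counts at L-III, 112, 478 and 666 at L-IV, and 1.78, 1.03 and 2.93 at L-V. Its log2 fold change to L-IV was 5.36 ± 0.69 (SE; limma adjusted p = 0.00101) and that from L-IV to L-V was -6.88 (limma adjusted p = 0.0018). Glyma16g32330.1 had 8.45, 7.41 and 0 at L-III, 74.5, 407 and 504 at L-IV and 1.78, 1.03 and 0 at L-V. In both the lowest L-IV library was replicate 1, and it was still above all L-III and L-V libraries.

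The AP2/ERF list, which includes factors of the ethylene response, did not hold the C-repeat-binding factor 4 transcripts. Of its 10 tested transcripts 4 rose and 0 fell (median 1.80). The pair named as ethylene responsive element binding factor 5 had similar values, with Glyma05g05130.1 at 25.9 to 59.3 normalised counts at L-III and 148 to 368 at L-IV (log2 fold change 2.54 ± 0.43, limma adjusted p = 0.00498) and Glyma17g15460.1 at 14.3 to 36.2 and 82.5 to 202 (2.48 ± 0.43, limma adjusted p = 0.00562). Of 21 GRAS transcripts, a plant family that includes the DELLA and scarecrow-like regulators, 3 rose and 0 fell (median 0.86). Glyma13g36120.1 (scarecrow-like 5) had 12.9 to 38.2 normalised counts at L-III and 64.1 to 102 at L-IV, and its call was lost in 6 of the 16 alternatives. Among MYB transcripts, a group picked after the values had been seen, 8 of 32 rose and 1 fell, the latter being Glyma01g00600.1, which had 12.5 to 38.9 normalised counts at L-III and 1.60 to 2.96 at L-IV.

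**Figure D3:**
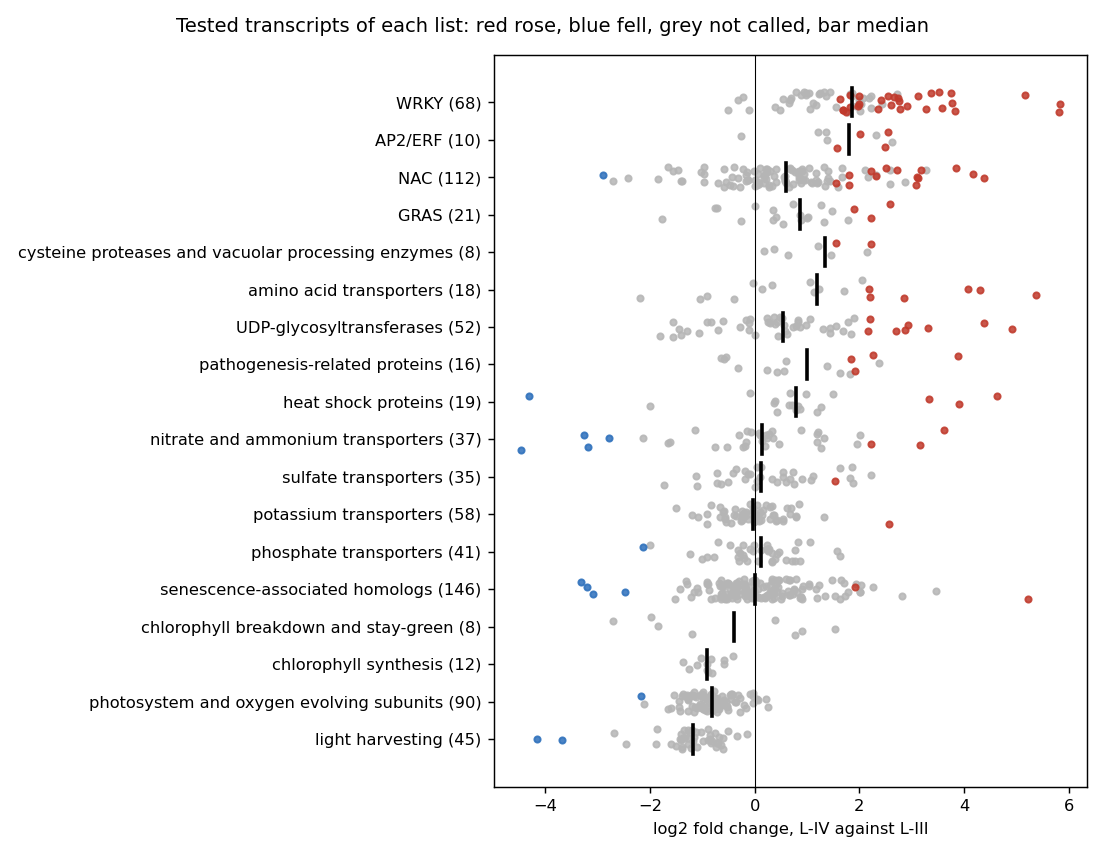
Log2 fold change of L-IV over L-III for every tested transcript of 18 lists, with the number tested in brackets and the list's median as a bar. WRKY transcripts lie mostly to the right of 0 and antenna transcripts to the left, and few of the latter were called. The senescence-associated homologs lie around 0.

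Proteases and transporters of amino acids and nitrogen are described next. Glyma15g19580.1, a papain-type cysteine proteinase, had 1221, 1951 and 1555 normalised counts at L-III and 7738, 7635 and 6358 at L-IV, a log2 fold change of 2.22 ± 0.36 (SE; limma adjusted p = 0.0041). It was the most abundant of the 8 cysteine protease transcripts tested, of which 2 rose, both from this gene (median 1.33). Without overlap 7 of the 8 were higher, where 11.6% of all tested transcripts were. Without L-III replicate 2, 4 of the 8 rose. The summed level of the list was 3444 to 5098 at L-III and 11335 to 13265 at L-IV.

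Of 18 amino acid transporter transcripts 6 rose, from 4 of 14 genes, and 0 fell (median 1.18). Glyma09g21070.3, named as amino acid transporter 1, had 3.38, 2.28 and 1.29 normalised counts at L-III and 47.3, 65.1 and 77.6 at L-IV, a log2 fold change of 4.30 ± 0.46 (SE; limma adjusted p = 0.000338), kept in all 16 alternatives. Glyma19g22590.1, named as lysine histidine transporter 1, an importer of neutral and acidic amino acids in Arabidopsis, had 0.845, 31.4 and 0 at L-III and 166, 208 and 120 at L-IV (5.37 ± 1.09, limma adjusted p = 0.0148). Its spread came from L-III replicate 2, and without that library the log2 fold change was 6.89 (limma adjusted p = 0.000682, where the alternatives ranged from 0.000682 to 0.145).

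Nitrate and ammonium transporters changed in both directions, with 3 rises and 4 falls among 37 tested transcripts and a median log2 fold change of 0.13. The rises were of high-affinity carriers: Glyma18g20510.1, named as nitrate transporter 2.5, had 4.23, 2.85 and 3.88 normalised counts at L-III and 61.7, 60.6 and 46.2 at L-IV (log2 fold change 3.62 ± 0.56, limma adjusted p = 0.00269). Its namesake Glyma08g39140.1 had 27.9, 2.85 and 16.8 at L-III and 88.9, 157 and 99.2 at L-IV (3.16 ± 0.65, limma adjusted p = 0.0154). The remaining rise was Glyma18g43540.1, an ammonium transporter 2 outside the naming rule (log2 fold change 2.22).

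The falls were of nitrate transporter 1:2, a low-affinity nitrate carrier in Arabidopsis. Glyma17g10500.1 had 166, 120 and 240 normalised counts at L-III and 5.61, 3.70 and 13.8 at L-IV, and fell by 4.46 on the log2 scale (SE 0.83, limma adjusted p = 0.00891). The other 3 falls were transcripts of 1 gene, Glyma05g01380, whose first transcript had 24.5 to 29.7 at L-III and 0.739 to 4.91 at L-IV. The most abundant transcript of the list, Glyma10g26690.1 (ammonium transporter 1;1), had 1063 to 1896 at L-III and 2674 to 3867 at L-IV, without overlap but below the fold threshold (log2 fold change 1.18, limma adjusted p = 0.176).

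Carriers of the other macronutrients were called at shares of 2.86%, 1.72% and 2.44%, near the 2.54% called over all tested transcripts. Of 35 sulfate transporter transcripts 1 rose, Glyma04g11582.1 (sulfate transporter 1;3, 10.99 to 22.2 normalised counts against 41.6 to 58.4), a call lost in 13 of the 16 alternatives, and without L-III replicate 2 the list had 3 rises. Of 58 potassium transporter transcripts 1 rose, and its product name was a BTB/POZ domain protein (Glyma08g01900.1, 7.41 to 12.9 against 38.4 to 95.3). Of 41 phosphate transporter transcripts 1 fell, Glyma20g03960.1 (EXS family, 59.9 to 111 against 17.01 to 22.4, log2 fold change -2.13 ± 0.37), a call kept in all 16 alternatives. The medians of the lists were 0.12, -0.03 and 0.13.

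Few transcripts of the photosynthetic apparatus passed the test, although the medians of their lists were below 0. Of 45 antenna transcripts 2 fell (4.44%) and 0 rose, and the median log2 fold change was -1.17. Without overlap 26 of the 45 were lower, where 9.69% of all tested transcripts were. The 2 antenna transcripts that fell were named as subunit B1 of light-harvesting complex II. Glyma16g27995.1 had 1431, 227 and 407 normalised counts at L-III and 31.2, 24.4 and 27.5 at L-IV (log2 fold change -4.16 ± 0.97, limma adjusted p = 0.0306). Glyma16g28070.1 had 621, 182 and 357 at L-III and 24.8, 19.2 and 36.4 at L-IV (-3.68 ± 0.89, limma adjusted p = 0.0375). These calls were lost in 8 and 9 of the 16 alternatives, the second also under the replicate block. Even the lowest L-III library was several times the highest of L-IV, and the spread lay within L-III.

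The summed antenna level shows the place of L-III replicate 2. It was 107146 and 89204 in L-III replicates 1 and 3, 55701 in replicate 2, and 43308, 37369 and 53364 at L-IV. Without replicate 2 the list's median was -1.56 and 5 of the 45 transcripts were called. Of the 90 photosystem and oxygen-evolving subunits 1 fell (2 without L-III replicate 2), and the median was -0.81. Without overlap 33 of the 90 were lower, where 9.69% of all tested transcripts were. The sum of the 90 in L-III replicate 2 (62774) lay within the L-IV range of 52728 to 68010, while the other L-III libraries held 155269 and 132402. The transcript that fell was Glyma13g43370.2, photosystem I subunit H2, with 390, 103 and 266 normalised counts against 50.5, 41.4 and 54.0, a call lost in 8 of the 16 alternatives. The most abundant of all, Glyma05g00620.1 (photosystem I subunit F), had 39256, 16570 and 37836 against 14025, 12787 and 17724, which overlapped.

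Enzymes of chlorophyll synthesis (12 transcripts, median -0.90) and of the rubisco and Calvin cycle list (9 transcripts, median -0.43) had 0 calls. In these lists 2 and 3 transcripts were lower without overlap, where 9.69% of all tested transcripts were. Without L-III replicate 2 each list had 1 fall. Carbonic anhydrase 1, which supplies the chloroplast with inorganic carbon, fell in 1 transcript, Glyma19g01050.10, from 522, 47.3 and 185 normalised counts to 3.20, 4.44 and 34.4, a call lost in 11 of the 16 alternatives. In the breakdown of chlorophyll 0 of 8 transcripts were called, and 1 fell without L-III replicate 2. Glyma11g02980.1, named as non-yellowing 1 for the stay-green magnesium dechelatase, had 230, 363 and 430 at L-III and 1235, 932 and 778 at L-IV, without overlap, at a log2 fold change of 1.54 ± 0.56 (limma adjusted p = 0.199).

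Both genes named for myo-inositol-phosphate synthase, the enzyme that commits glucose phosphate to inositol, fell in all 6 tested transcripts, a group picked after its values were seen. Glyma05g31450.2 had 160, 73.0 and 111 normalised counts at L-III and 8.01, 8.13 and 15.7 at L-IV (log2 fold change -3.31 ± 0.44, limma adjusted p = 0.00104), and it kept its call in all 16 alternatives. Glyma08g14670.1 had 203, 17.7 and 46.5 at L-III and 5.61, 1.48 and 1.97 at L-IV (-3.95 ± 0.87, limma adjusted p = 0.0218), with L-III replicate 2 again the lowest of its stage and the call lost in 7 alternatives. The 6 transcripts come from only 2 genes measured in the same leaves, so they are not 6 independent measurements.

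Among thioredoxins and glutaredoxins, also picked after the values were seen, 6 of 44 transcripts fell and 0 rose. Glyma10g02590.1, of the thioredoxin superfamily, had 27.0, 67.3 and 131 normalised counts at L-III and 0, 1.48 and 3.93 at L-IV (log2 fold change -4.78 ± 0.97, limma adjusted p = 0.0143). The largest fall of an annotated transcript was that of Glyma19g41090.1, a glycosyl hydrolase, from 641, 16.5 and 185 to 0, 5.91 and 3.93 (-5.30 ± 1.16, limma adjusted p = 0.0217), where L-III replicate 2 held far fewer counts than the others of its stage. That call was lost in 9 of the 16 alternatives and that of Glyma10g02590.1 in 6. Glyma07g38030.1 (thioredoxin superfamily) and Glyma19g01480.1 (peroxidase) fell by 3.75 and 3.91 on the log2 scale, each lost in 6 alternatives.

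The soybean homologs of senescence-associated genes, as a list, had a median log2 fold change of 0.00, with 2 rises (1.37%) and 4 falls (2.74%) among 146 tested transcripts. Over all tested transcripts these shares were 1.78% and 0.758%. Without L-III replicate 2 the counts were 6 and 4. Glyma14g08910.1 rose, a phospholipase A 2A of the patatin-like lipid hydrolases, from 0.845, 16.5 and 0 normalised counts to 163, 133 and 73.7 (log2 fold change 5.21 ± 0.75, limma adjusted p = 0.00191). The other rise was Glyma17g07740.1, a UDP-glucuronate epimerase, from 33.6 to 43.9 at L-III to 60.1, 195 and 251 at L-IV. Of the falls, 3 were transcripts of the inositol-phosphate synthase gene Glyma05g31450 and 1 was a fatty acid desaturase 2 (Glyma03g30070.1). The most abundant member, Glyma07g15800.2 (metallothionein 2A), lay at 15026 to 19578 against 15730 to 20289.

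In the lists on hormones, Glyma07g04480.1 (lipoxygenase 3, an enzyme of jasmonate synthesis in Arabidopsis) rose from 62.1 to 77.0 normalised counts at L-III to 243, 439 and 384 at L-IV (log2 fold change 2.33 ± 0.36, limma adjusted p = 0.00269). It was the 1 call among 23 tested transcripts of lipoxygenase and jasmonate synthesis, and its call was kept in all 16 alternatives. The list as a whole did not rise: 17 of the 23 were lower and 6 higher. Its median log2 fold change was -0.98, or -0.49 with undetectable levels set to their bound. The most abundant of the 23, Glyma07g00900.1 (lipoxygenase 1), had 8322, 2032 and 6978 against 2448, 2969 and 6830, which overlapped (log2 fold change -0.42, limma adjusted p = 0.946). Cytokinin oxidase 7, which degrades cytokinin, fell in both tested transcripts of Glyma04g05840, with Glyma04g05840.2 going from 114, 42.8 and 158 to 8.81, 11.8 and 22.6 (-2.69 ± 0.68, limma adjusted p = 0.046), a call lost in 8 of the 16 alternatives. Among ethylene-forming enzymes 0 of 9 transcripts were called, and the 9 came from only 2 genes and are not 9 independent measurements. The log2 fold change was positive in all 9 (median 1.14), and 2 of 9 rose without L-III replicate 2 (median 1.67). Among Aux/IAA proteins 0 of 4 were called. Without L-III replicate 2, 1 of the 23 transcripts of lipoxygenase and jasmonate synthesis fell, where 0 did with it.

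In the lists on carbon and lipid reserves, 1 of 4 starch-degrading transcripts rose, Glyma01g41190.1 (chloroplast beta-amylase), from 18.6, 132 and 18.1 normalised counts to 228, 269 and 280 (log2 fold change 2.82 ± 0.69, limma adjusted p = 0.0384), a call lost in 8 of the 16 alternatives. Glyma05g05750.2, of the same product name, was lower without overlap at 776, 702 and 746 against 306, 360 and 530, but was not called (limma adjusted p = 0.296). Glyma09g29840.1 (beta-amylase 1) was higher without overlap and not called (log2 fold change 0.67). The most abundant of the 4, Glyma14g39930.1 (alpha-amylase-like 2), overlapped at 2650 to 4411 against 3564 to 3897. Of the lipase list 1 of 20 transcripts rose, the phospholipase A 2A named above, and 1 fell (Glyma07g37200.1, named as phospholipases, log2 fold change -2.33, chosen after its values were seen). Its most abundant transcript, Glyma01g42420.1 (phospholipase D beta 1), had 757, 1214 and 696 against 1482, 2086 and 2040, which did not overlap but stayed below the fold threshold (log2 fold change 1.10 ± 0.27, limma adjusted p = 0.0425). Glutamine synthetase 2, the chloroplast enzyme of ammonium assimilation, had 0 calls among 6 transcripts of 2 genes, whose log2 fold changes ran from -0.78 to -0.49. In their most abundant transcript, Glyma13g28180.5, L-III replicate 2 lay at 94.7 normalised counts beside 423 and 180 in its stage and 93.2 to 157 at L-IV.

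**Figure D4:**
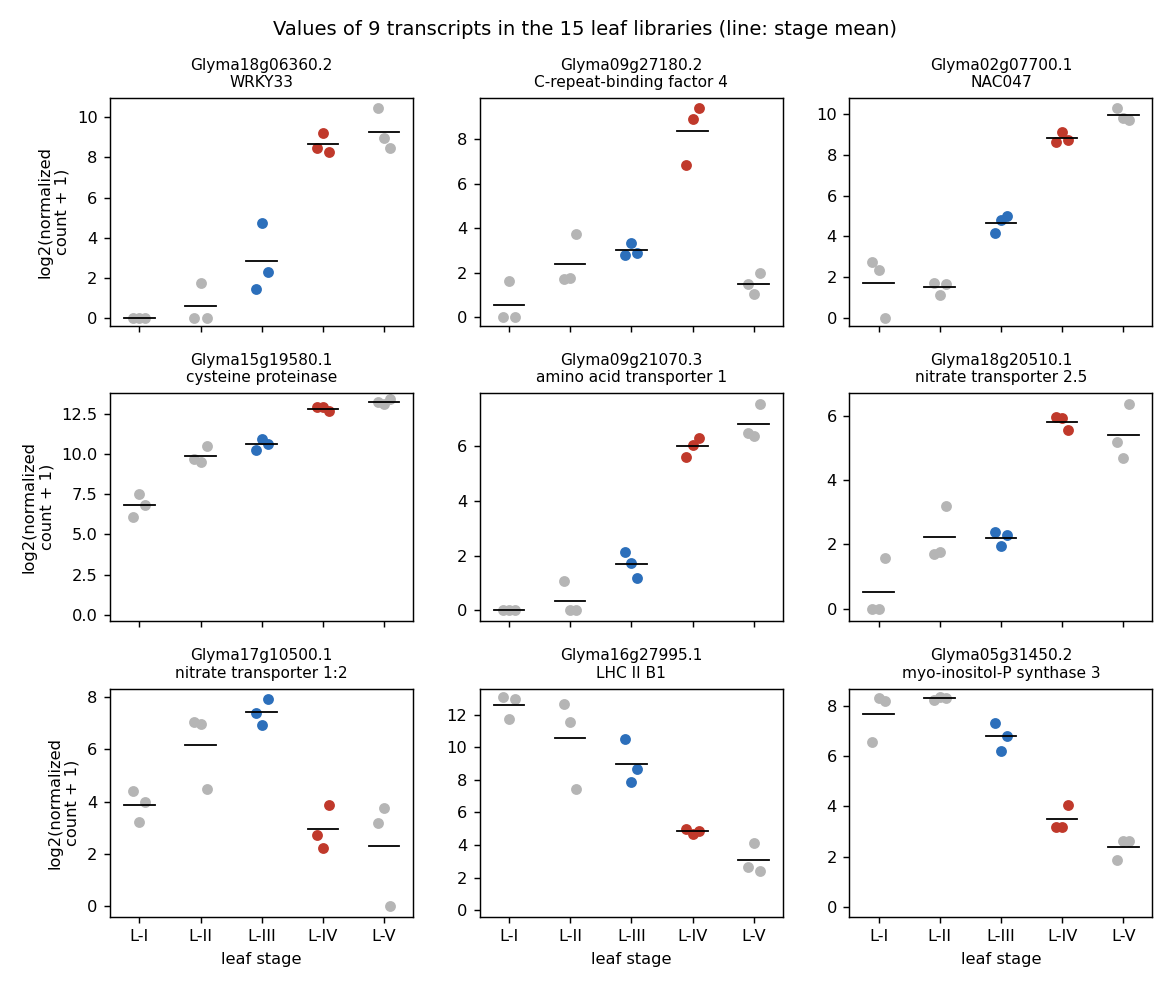
Values of 9 named transcripts in all 15 leaf libraries, as log2(normalised count + 1), with L-III in blue, L-IV in red, the other stages in grey and the stage mean as a line. The L-III and L-IV points do not overlap in any of the 9. Glyma09g27180.2 is high at L-IV and low again at L-V, while the cysteine proteinase and NAC047 have their highest means at L-V.

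Genes of defence were also among the rises. Of 16 transcripts in the list of pathogenesis-related proteins 4 rose and 0 fell (median 0.99), and 6 rose without L-III replicate 2. The 4 included Glyma02g01020.1, a chitinase, with 3.38, 20.5 and 6.46 normalised counts at L-III and 45.7, 237 and 200 at L-IV (log2 fold change 3.88 ± 0.69, limma adjusted p = 0.00632). Of 52 UDP-glycosyltransferase transcripts, whose products attach sugars to hormones and secondary metabolites, 8 rose and 0 fell (median 0.54). Glyma09g23720.1 (UGT 88A1) had 3.38, 47.9 and 5.17 at L-III and 324, 365 and 302 at L-IV, and its neighbour in name Glyma09g23750.1 had 0, 3.99 and 0 and then 38.4, 31.8 and 34.4. In the first L-III replicate 2 was the highest of its stage by far.

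In the heat shock list 3 of 19 transcripts rose and 1 fell (median 0.79), and 5 rose without L-III replicate 2. The rises included 2 transcription factors, Glyma03g29190.1 (heat shock factor B3) from 0, 7.41 and 0 normalised counts to 59.3, 64.3 and 31.4, and Glyma11g06010.1 (heat shock factor 4) from 0, 8.55 and 5.17 to 48.9, 88.7 and 42.3. The fall was that of a chaperone of the plastid, Glyma18g10760.2 (heat shock protein 21), from 58.3, 5.13 and 51.7 to 0, 1.48 and 0. Its L-IV libraries were all at or below the limit of detection, and the mean at L-III was at least 15.2-fold higher than that limit.

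Receptor kinases of the lectin type, which perceive signals at the cell surface, were picked as a group after the values were seen. Of 57 transcripts 5 rose (8.77%) and 0 fell (median of the group 1.01), where 6.72% of all tested members with product names rose. Glyma06g40920.1, an S-locus lectin kinase, had 24.5, 108 and 24.6 normalised counts at L-III and 946, 1106 and 958 at L-IV (log2 fold change 4.60 ± 0.60, limma adjusted p = 0.00102). Without L-III replicate 2, 15 of the 57 were called. Over all 422 protein kinase transcripts 27 rose (6.40%) and 2 fell (0.474%), with a median of 0.55. Among all tested members with product names these shares were 6.72% and 2.75%. Without L-III replicate 2, 59 kinase transcripts rose and 3 fell, where 2.46% and 1.12% of all tested transcripts did. No share over named transcripts was taken in that setting.

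The largest rise of an annotated transcript was that of Glyma20g26610.1, a plant basic secretory protein, from 0.845, 64.4 and 0 normalised counts to 182, 444 and 359 (log2 fold change 5.96 ± 1.14, limma adjusted p = 0.0104), a call lost in 6 of the 16 alternatives. Glyma10g30340.1 (product text slit protein) and Glyma18g03745.1 (a hypothetical protein) rose by log2 fold changes of 5.67 and 5.59. In all 3 the only L-III library with more than 2 counts was replicate 2. Of the transcripts with no product name, Glyma09g05376.1 had no read at L-I, L-II or L-III and 557, 358 and 162 normalised counts at L-IV, at least 133-fold above the limit of detection per library at L-III. Glyma03g40770.1 had 9.30, 338 and 19.4 at L-III and 3607, 10498 and 6041 at L-IV. The largest falls without a name were Glyma08g15960.3, from 1402, 446 and 778 to 8.81, 3.70 and 41.3 (call lost in 9 of the 16 alternatives), and Glyma08g24750.1, from 106, 437 and 125 to 0.801, 7.39 and 3.93.

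Whether the change into L-IV differed from the change out of it was tested transcript by transcript, as the log2 fold change into L-IV minus the log2 fold change from L-IV to the last stage. This difference passed the same thresholds for 133 transcripts (0.261% of those tested), for 422 without L-III replicate 2 and 283 without L-IV replicate 1, and for 30, 26 and 27 without L-III replicates 1 and 3 and L-V replicate 2. Without L-IV replicate 2 or 3 it passed for 5. It was positive for 125, of which 113 were among the 906 risers, and negative for 8, all of them among the 386 fallers. Since the risers were chosen on L-IV values that also enter this difference, these counts are a description. In the 113 risers the median log2 fold change was 3.21 into L-IV and -1.89 out of it, and 15 of them had a lower mean at L-V than at L-III.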

How the data were processed

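Per the labels and the study's methods, paired-end reads from total RNA of the leaf were matched to the Gmax_189 transcript models with Bowtie, allowing 1 mismatch. Reads that matched more than 1 transcript were discarded, so that near-identical duplicates and transcripts of 1 gene are counted only by the reads that tell them apart. Strand was not stated. The deposited values are log2-scale variance-stabilized counts that the authors computed with DESeq 1.0. They were inverted to normalised counts and whole reads (all within 0.05 of a whole number). The inversion differed by at most 4.89e-06 in relative terms from normalised counts that the study printed for 1999 leaf transcripts.

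Testing was limited to transcripts whose replicates of any 1 leaf stage summed to 10 or more reads, and used limma 3.58.1 (R 4.3.3) on log2(normalised count + 1), with a trended variance and all 15 leaf libraries in the fit. Fold changes are on that scale and understate low transcripts. P-values were adjusted by Benjamini-Hochberg. The fit was also run on simulated counts with known changes. That simulation gave every transcript the same setting for replicate spread and held no outlying library. It therefore does not bear on how the calls depend on single libraries. The members and lists were chosen with earlier results of these data known. Entries that a search pattern had caught wrongly were removed after the lists were read. Named transcripts were called, did not overlap and had a mean of at least 20 normalised counts at the higher stage: the 10 largest annotated rises and falls, and the 2 largest per list in each direction. The most abundant of each list, all of lists with at most 6 and the AtNAP orthologs were selected for naming whether called or not. Not every transcript selected by these rules is described above, and many of those left out were not called. They include the most abundant transcripts of the GRAS, MYB, heat shock, pathogenesis-related and UDP-glycosyltransferase lists. The Aux/IAA, SWEET, abscisic acid and circadian clock transcripts were also left out. Gene identifiers matched no entry of the RefSeq table, so no sequence is given. No entries on autophagy were found in the product names. Python 3.11.15, pandas 2.3.3 and matplotlib 3.10.9 were used for summaries.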

Additional observations from a re-analysis of the deposited data

Results flagged for a closer look

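In 8 named transcripts the step into L-IV and the step from L-IV to L-V differed by the test of the difference (limma, adjusted p below 0.05 and a size over 1.5 on the log2 scale). The transcripts were named on L-IV values that enter this difference. The difference, step to L-IV minus step to L-V, was 12.99 for Glyma16g32330.1 and 12.24 for Glyma09g27180.2, both C-repeat-binding factor 4. It was 7.82 for Glyma10g30340.1 (slit protein), 6.03 for Glyma02g01020.1 (chitinase), 4.54 for Glyma17g07740.1 (UDP-glucuronate epimerase) and 3.79 for Glyma05g05130.1 (ethylene responsive element binding factor 5). For the transcripts with no product name it was 10.42 in Glyma03g40770.1 and 9.30 in Glyma09g05376.1. Glyma17g07740.1 had 33.6 to 43.9 normalised counts before the step (L-III), 60.1 to 251 after it (L-IV), and 18.7 to 26.4 in the L-V leaves.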

How the results depend on the processing

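The number of calls moved with the settings. In no alternative was a transcript called in the direction opposite to its call here. Against 906 rises, 386 falls and 133 differences between steps, a pseudocount of 0.1 gave 517 rises and 39 differences, a pseudocount of 5 gave 233 falls and 366 differences, and no filter on low counts gave 372, 124 and 41. A mean of at least 10 normalised counts gave 232 falls. The 6 L-III and L-IV libraries alone gave 238 and 98. Upper-quartile scaling, which moved the median of all transcripts to -0.11, gave 84 differences, scaling to the library total gave 88, and limma voom on the recovered reads gave 386. Leaving out 1 library gave 266 to 1253 rises, 106 to 572 falls and 5 to 422 differences. Without L-III replicate 2, 803 of the 906 rises and 311 of the 386 falls were kept. Samples with the same number did not deviate together (correlations 0.02, 0.07 and -0.06), and the replicate block gave 817 rises, 318 falls and 77 differences.

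Of 63 named transcripts that rose or fell, 9 kept their call in all 16 alternatives and 34 lost it in at most 3, 15 lost it in 8 or more, and none changed sign. Calls were lost most often with the 6 libraries alone (51), without L-IV replicate 2 (32) and with no filter (31). Without L-III replicate 2 only 1 was lost. The medians of the nitrate and ammonium, sulfate and phosphate transporter and senescence-associated lists changed sign in some settings, as did those of the Aux/IAA (-1.03 to 0.23), cytokinin (-0.99 to 0.20) and chlorophyll breakdown lists (-0.68 to 0.58). At these depths a transcript below about 3 counts at both stages could not be compared.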
